A study of Mus musculus with 6 samples.

Results

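The semaphorins, plexins, neuropilins, ephrins and Eph receptors are guidance molecules, most of them on the cell surface and some secreted. Here 53 of their genes were examined in mouse embryonic stem cells. Members were taken by gene symbol from the table of 24083 genes, which gave 54 matches, and 53 of these had an FPKM above 0 in at least 3 of the 6 libraries. FPKM counts the fragments that map to a gene, relative to its length and to all mapped fragments of that library. The match left out was Plxna4os1, an antisense transcript listed at 0 in all 6 libraries. Nearest to that limit among the members was Sema3d, listed at 0 in the 3 WT libraries and at 0.0258, 0.0311 and 0.0134 FPKM in the 3 R153A libraries. The members were 28 ligands (20 semaphorins and 8 ephrins) and 25 receptors (9 plexins, 2 neuropilins and 14 Eph receptors).

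The study compared stem cells with wild-type Nanog (WT, 3 libraries) and stem cells whose Nanog carries the R153A change (R153A, 3 libraries), both grown on gelatin, in serum with LIF, a cytokine that maintains self-renewal. The NANOG protein binds DNA through a homeodomain and acts in the pluripotency network. How the R153A change was introduced, and whether a group's 3 libraries stem from different cultures or clones, is not stated in the labels, so p-values measure the spread between these libraries, which may be technical. Nanog mRNA stood at 241, 259 and 258 FPKM in the WT libraries and 119, 122 and 129 FPKM in the R153A libraries, and all 3 R153A values lay below the WT values (log2 change -1.03, adjusted p = 2.5e-08 by limma). Wdr5, which encodes a core subunit of histone methyltransferase complexes, went from 65.3 ± 1.63 to 41.96 ± 0.982 FPKM. Each library's FPKM added up to a total of between 360152 and 382086. The depth behind them is unknown because the table holds no read counts. Values are means ± SD over 3 libraries unless each library is listed, and a log2 change is the difference, R153A minus WT, of the mean log2(FPKM + 1), which is too small for genes of low FPKM because of the added 1.

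Semaphorins bind plexins, large receptors whose inner part acts on small GTPases and so on the cytoskeleton. The secreted semaphorins of class 3 mostly need a neuropilin as a co-receptor, whereas classes 4 to 6 span the membrane and class 7 is held by a lipid anchor. Eph receptors are receptor tyrosine kinases, and their ephrin ligands stay on the cell surface, the A type by a lipid anchor and the B type by a transmembrane segment. Cells that touch therefore signal in both directions, and the families are known for axon guidance, the sorting of cells at tissue boundaries and vessel growth. In the early embryo they take part in the separation of cell populations around gastrulation.

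Most members that were expressed were higher in R153A cells. Genes with at least 1 FPKM in at least 3 libraries were tested with limma, with p-values adjusted over all 11817 such genes and a call at an adjusted p under 0.05. Of the 53 members 32 were tested, and 20 rose, 6 fell and 6 did not pass. Among all genes tested 59.8% were called, 37.5% rose and 22.3% fell, and those shares were 31.9% and 30.9% under median-ratio scaling and 29.7% and 32.9% under quantile normalization. The members' counts were 19 and 7 under the first of these scalings and 18 and 7 under the second. Of the tested members, 5 (Sema3b, Sema6a, Sema6b, Plxnd1 and Epha8) did not reach 1 FPKM in any WT library and so entered the test only through R153A, and 1 (Sema4f) passed only through WT. Their direction was thereby fixed, and the counts over the tested members are a description. With no filter on low values, all 53 members entered the fit, and 29 rose and 6 fell, where 26.9% and 13.4% of the 20504 genes did. That fit took any gene above 0 FPKM in at least 1 library, whereas members needed at least 3. The members' counts and the shares of all genes are therefore not fully alike. Those that rose were then 16 of 28 ligands and 13 of 25 receptors.

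Ligands and receptors were both called in both directions. Of 20 ligands tested 12 rose, 3 fell and 5 did not pass, and of 12 receptors 8 rose, 3 fell and 1 did not pass. The shares of all genes tested were 37.5% higher and 22.3% lower. Of the rises, 3 of ligands and 2 of receptors passed the filter only through R153A, and 1 ligand fall only through WT. The median log2 change was 0.39 over the tested ligands and 0.62 over the tested receptors, beside 0.07 over all genes tested. With no filter those medians were 0.20, 0.11 and 0.03, and with quantile normalization they were 0.18, 0.49 and -0.03. Changes of at least 2-fold on the log2(FPKM + 1) scale passed for 7 rises and 1 fall. They were the rises of Sema6a, Efnb1, Efnb2, Sema3e, Sema4c and Sema6b and the fall of Efnb3 among ligands, and the rise of Epha1 among receptors. In all genes tested 5.98% rose and 2.31% fell by as much. Among the members' 7 rises, the filter could admit Sema6a and Sema6b only as rises, since no WT value of either reached 1 FPKM. The numbers of ligands and receptors past 2-fold changed with the measure. By the ratio of mean FPKM 15 called members passed 2-fold. They were 11 of the 20 ligands tested and 4 of the 12 receptors tested (Epha1, Plxnd1, Epha8 and Plxnb1). The share of all genes tested that passed 2-fold by this ratio was not computed, so the 15 have no background beside them. Of these 15, 6 had passed the filter through 1 group only. The 3 R153A values lay above the 3 WT values in 20 tested members and below them in 7, where 39.8% and 25.2% of all genes tested did so. For 5 of the 20 and 1 of the 7 the filter had fixed that separation, since they passed through 1 group only. No test of ligands against receptors was made, since the members are not independent of each other.

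**Figure D1:**
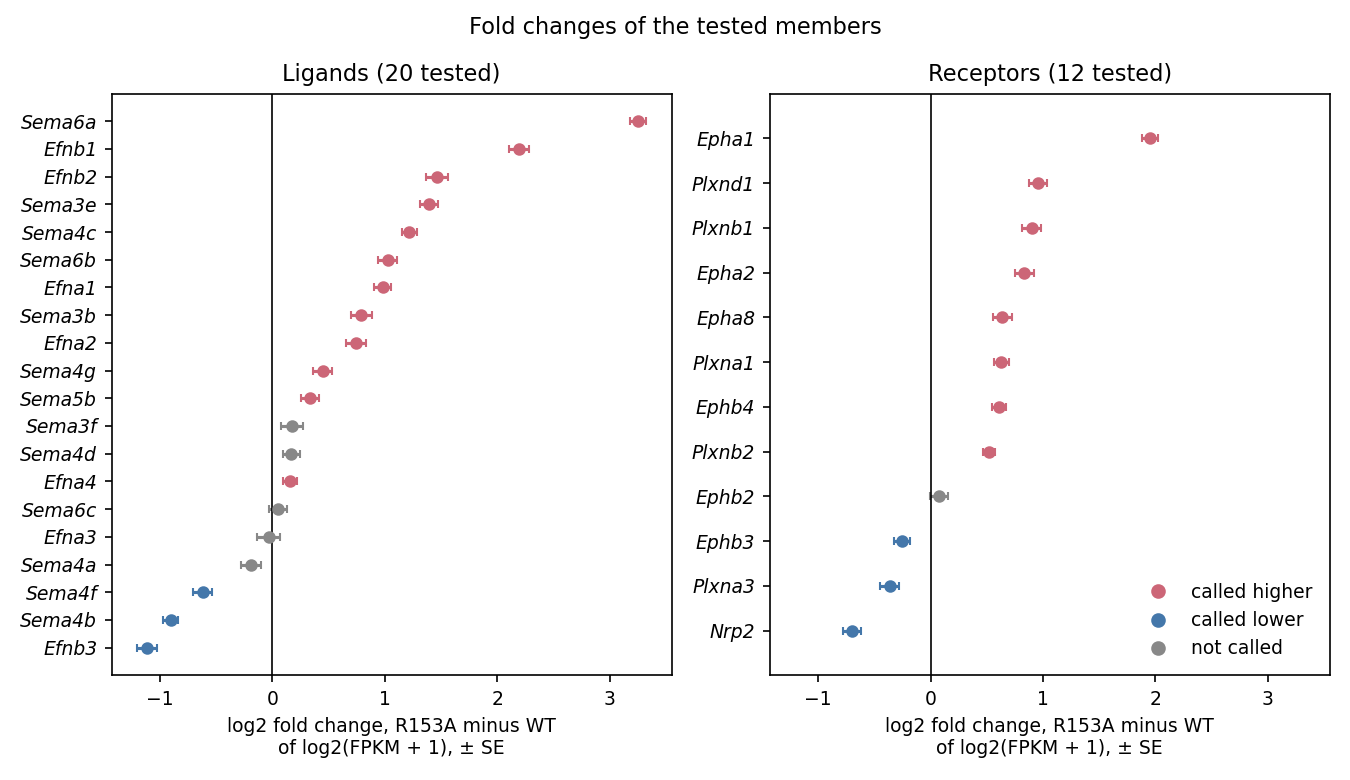
Log2 fold change (R153A minus WT of log2(FPKM + 1), points) with its SE (bars) for the 20 ligands and 12 receptors tested, coloured by the limma call. The ligands run from -1.12 for Efnb3 to 3.25 for Sema6a, and the receptors from -0.70 for Nrp2 to 1.95 for Epha1.

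The sequences in front of the transcription starts are shown for 6 of these genes, to let the promoters of ligands and receptors that rose and that fell be read side by side. The set of RefSeq promoters used here held usable entries for 47 of the 53 members (build GRCm38.p6). Sema6a and Efnb3, the ligands with the largest rise and the largest fall of all, were not among those 47. Shown are the 250 bases before the first listed start. The ligands with the largest rises in that set were Efnb1 (chrX:99135811-99136060, plus strand) and Efnb2 (chr8:8661243-8661492, minus strand). The ligand with the largest fall in it was Sema4b (chr7:80186620-80186869, plus strand). The same choice among receptors gave Epha1 (chr6:42373269-42373518, minus strand), Plxnd1 (chr6:115995006-115995255, minus strand) and Nrp2 (chr1:62703067-62703316, plus strand). Each reads 5′ to 3′ on the strand of the gene, and capitals mark matches on either strand to a GC box (GGGCGG, a site of the SP and KLF factors) or to a TCF/LEF core (CTTTGAT, of the WNT pathway).
Efnb1: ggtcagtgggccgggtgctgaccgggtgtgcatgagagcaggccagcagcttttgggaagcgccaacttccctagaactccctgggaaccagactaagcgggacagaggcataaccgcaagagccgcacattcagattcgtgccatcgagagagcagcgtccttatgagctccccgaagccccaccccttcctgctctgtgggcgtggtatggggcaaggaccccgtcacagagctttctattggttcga
Efnb2: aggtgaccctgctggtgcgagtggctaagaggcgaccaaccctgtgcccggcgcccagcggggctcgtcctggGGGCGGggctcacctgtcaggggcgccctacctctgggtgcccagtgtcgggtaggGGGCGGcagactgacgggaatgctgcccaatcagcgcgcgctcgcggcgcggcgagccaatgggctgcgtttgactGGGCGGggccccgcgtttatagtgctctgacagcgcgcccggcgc
Sema4b: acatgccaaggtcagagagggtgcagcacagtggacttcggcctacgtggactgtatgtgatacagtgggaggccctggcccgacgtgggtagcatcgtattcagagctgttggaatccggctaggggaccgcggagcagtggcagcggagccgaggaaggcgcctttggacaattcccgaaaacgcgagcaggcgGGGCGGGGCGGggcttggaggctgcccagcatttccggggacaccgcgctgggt
Epha1: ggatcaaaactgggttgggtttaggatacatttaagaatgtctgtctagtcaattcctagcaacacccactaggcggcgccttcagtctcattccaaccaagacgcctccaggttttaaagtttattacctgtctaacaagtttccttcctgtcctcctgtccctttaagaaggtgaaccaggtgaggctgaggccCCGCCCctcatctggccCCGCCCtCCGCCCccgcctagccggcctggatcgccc
Plxnd1: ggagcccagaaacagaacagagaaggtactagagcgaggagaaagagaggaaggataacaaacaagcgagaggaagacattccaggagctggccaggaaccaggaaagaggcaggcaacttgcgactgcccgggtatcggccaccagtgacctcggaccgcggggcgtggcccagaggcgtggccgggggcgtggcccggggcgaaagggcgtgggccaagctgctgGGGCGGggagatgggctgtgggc
Nrp2: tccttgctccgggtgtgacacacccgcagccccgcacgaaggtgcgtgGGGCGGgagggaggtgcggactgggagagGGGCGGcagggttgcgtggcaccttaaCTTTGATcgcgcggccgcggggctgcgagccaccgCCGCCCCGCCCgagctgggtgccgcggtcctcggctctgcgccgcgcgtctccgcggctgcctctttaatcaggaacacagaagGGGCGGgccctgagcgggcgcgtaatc

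The search also covered the homeodomain cores TAATTG and TAATGG and the octamer ATGCAAAT, none of which occurs in these 6 windows. A GC box stood in 30 of the 39 windows of tested members (76.9%), compared with 60.2% of the 11176 windows of all genes tested and 32.7% of all 32851 windows. It stood in 18 of 21 windows of members that rose (17 genes) and in 5 of 6 of members that fell (5 genes). Some genes have several starts, so the 39 windows of tested members belong to 27 genes and are not independent. The Efnb1 window holds none, the Epha1 window holds 3 within its last 54 bases, and the Nrp2 window holds 5. The TCF/LEF core, present in 2.19% of the windows of all genes tested, was found in 1 window of a tested member, that of Nrp2, with its first base 146 bases before the start. The median GC content was 64.4% in the windows of tested members and 60.4% in those of all genes tested. The median ratio of observed to expected CpG, in contrast, was lower in the former (0.611) than in the latter (0.734). These matches describe letters in a window only, since no factor's binding was measured and any part of them in the changes was not tested.

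Among the secreted semaphorins, Sema3e had the highest mean and the largest change among those tested. Sema3e, which steers growing vessels and axons, stood at 1.05, 1.30 and 1.35 FPKM in the WT libraries and 4.73, 5.07 and 4.79 FPKM in the R153A libraries. The R153A values were all above the WT values, a 3.95-fold higher mean and a log2 change of 1.40 (SE 0.0805, adjusted p = 8.4e-08 by limma). Sema3b, a repellent that is silenced in several tumours, rose from 0.345 ± 0.0551 to 1.33 ± 0.248 FPKM and passed the filter only through R153A. Sema3f, a ligand that prefers Nrp2, stood at 0.858, 0.897 and 1.27 FPKM in the WT libraries and 1.24, 1.16 and 1.37 FPKM in the R153A libraries. Its groups overlapped, and it was not called (adjusted p = 0.148 by limma), except without WT replicate 3 (adjusted p = 0.0372 by limma). The other 4 class 3 genes were under the filter. Sema3c, which guides cells of the cardiac outflow tract, stood at 0.108, 0.168 and 0.0796 FPKM in the WT libraries and 0.464, 0.514 and 0.537 FPKM in the R153A libraries, with every R153A value above the WT values. Sema3g lay between 0.0273 and 0.114 FPKM and Sema3a, the classic growth cone repellent, between 0 and 0.0414 FPKM over the 6 libraries. With no filter Sema3c and Sema3g were called higher (adjusted p = 3.6e-04 and 0.0336 by limma), and Sema3a and Sema3d were not (adjusted p = 0.691 and 0.0821 by limma).

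The transmembrane semaphorins of class 4 were called in both directions, 2 higher and 2 lower of 6, near the 37.5% and 22.3% of all genes tested. Sema4b, the most abundant ligand of all in WT cells, stood at 18.8, 21.8 and 19.6 FPKM in the WT libraries and 10.1, 10.8 and 9.79 FPKM in the R153A libraries. Every R153A value was below the WT values, a 1.96-fold lower mean and a log2 change of -0.91 (SE 0.0681, adjusted p = 7.0e-07 by limma). Sema4c, a ligand of Plxnb2, went the other way, with values of 1.69, 1.77 and 1.77 FPKM in the WT libraries and 5.48, 5.35 and 5.31 FPKM in the R153A libraries. The groups were apart, and its log2 change was 1.22 (SE 0.0689, adjusted p = 7.3e-08 by limma). Sema4g rose from 2.17 ± 0.224 to 3.33 ± 0.288 FPKM, and Sema4f fell from 1.22 ± 0.0786 to 0.443 ± 0.0812 FPKM. Sema4d, a ligand of Plxnb1 known from lymphocytes and bone, stood at 7.62, 8.07 and 7.87 FPKM in the WT libraries and 9.40, 7.99 and 9.52 FPKM in the R153A libraries. The R153A value of replicate 2 lay inside the WT range, and Sema4d was not called (adjusted p = 0.0704 by limma) unless that library was left out (adjusted p = 0.0145 by limma). Sema4a was not called either (1.49 ± 0.148 to 1.18 ± 0.178 FPKM, adjusted p = 0.0821 by limma), but was called lower without R153A replicate 1 (adjusted p = 0.0412 by limma), under median-ratio scaling (0.0309) and under quantile normalization (0.00161).

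In class 6 the largest change was that of Sema6a. This ligand of Plxna2 and Plxna4 stood at 0.834, 0.764 and 0.774 FPKM in the WT libraries and 16.5, 14.96 and 16.9 FPKM in the R153A libraries, a 20.4-fold higher mean, and no other member changed as much (log2 change 3.25, SE 0.0723, adjusted p = 1.6e-10 by limma). Sema6b stood at 0.357, 0.225 and 0.345 FPKM in the WT libraries and 1.70, 1.60 and 1.68 FPKM in the R153A libraries, a 5.37-fold higher mean (log2 change 1.02, SE 0.0818, adjusted p = 1.1e-06 by limma). Both lay under 1 FPKM in every WT library. Sema6c, the leading class 6 gene in WT, stood at 2.32, 2.41 and 2.70 FPKM in the WT libraries and 2.45, 2.55 and 2.79 FPKM in the R153A libraries, with overlapping groups and no call (adjusted p = 0.603 by limma). Its share of the summed class 6 FPKM was 69.2% ± 2.71 in WT and 12.8% ± 0.801 in R153A, while that of Sema6a was 22.2% ± 1.78 in WT and 79.1% ± 0.799 in R153A. Sema6d was listed at no more than 0.0118 FPKM in any library. In class 5, whose members carry thrombospondin repeats, Sema5b rose from 1.29 ± 0.0934 to 1.89 ± 0.180 FPKM (adjusted p = 0.00477 by limma), a call that ended under quantile normalization (adjusted p = 0.231 by limma). Sema5a, under the filter, went from 0.176 ± 0.0397 to 0.386 ± 0.0750 FPKM. The lipid-anchored Sema7a, a ligand of Plxnc1, stood at 0.718, 0.684 and 0.935 FPKM in the WT libraries and 0.795, 0.539 and 0.680 FPKM in the R153A libraries, with overlapping groups, and was not tested.

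All 3 B-type ephrins were called, where 59.8% of all genes tested were, but not in the same direction. Efnb1, a ligand whose loss disturbs cell sorting in the skull and skeleton, stood at 1.25, 1.37 and 1.85 FPKM in the WT libraries and 9.93, 10.7 and 10.4 FPKM in the R153A libraries. That was a 6.94-fold higher mean, with a log2 change of 2.19 (SE 0.0926, adjusted p = 8.2e-09 by limma). Efnb2, the ephrin of arterial endothelium, stood at 2.22, 2.87 and 1.89 FPKM in the WT libraries and 8.07, 8.08 and 8.21 FPKM in the R153A libraries, 3.49-fold higher in the mean (log2 change 1.47, SE 0.0993, adjusted p = 3.0e-07 by limma). For both genes the lowest R153A value exceeded the highest WT value more than 2-fold. Efnb3, an ephrin of the neural midline, stood at 3.77, 4.49 and 3.89 FPKM in the WT libraries and 1.42, 1.42 and 1.14 FPKM in the R153A libraries, a 3.05-fold lower mean (log2 change -1.12, SE 0.0872, adjusted p = 9.4e-07 by limma). The share of Efnb3 in the summed ephrin-B FPKM was 51.5% ± 0.561 in WT and 6.71% ± 0.802 in R153A, and that of Efnb1 was 19.1% ± 4.57 in WT and 52.2% ± 0.963 in R153A.

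Of the 4 A-type ephrins tested 3 rose, where 37.5% of all genes tested did, and the most abundant was not called. Efna1, the main ligand of Epha2 in epithelia, stood at 2.33, 1.92 and 2.11 FPKM in the WT libraries and 5.16, 4.95 and 5.34 FPKM in the R153A libraries, a 2.43-fold higher mean (log2 change 0.98, SE 0.0771, adjusted p = 9.9e-07 by limma). Efna2 stood at 1.78, 2.15 and 1.72 FPKM in the WT libraries and 4.22, 3.51 and 3.78 FPKM in the R153A libraries, 2.04-fold higher in the mean (adjusted p = 2.6e-05 by limma). Efna3 had the smallest change of the tested ligands, with values of 9.004, 8.36 and 10.9 FPKM in the WT libraries and 9.47, 10.1 and 7.88 FPKM in the R153A libraries. Its groups overlapped, and the log2 change of -0.03 (SE 0.103, adjusted p = 0.789 by limma) was within the spread of the libraries. Efna4 stood at 7.01, 7.08 and 6.79 FPKM in the WT libraries and 7.97, 7.90 and 7.74 FPKM in the R153A libraries, a narrow rise (log2 change 0.16, adjusted p = 0.0430 by limma) whose call ended in 9 of 16 alternatives (after median-ratio scaling, adjusted p = 0.224 by limma). Efna5, a retinal map cue, stood at 0.250, 0.201 and 0.121 FPKM in the WT libraries and 0.844, 1.24 and 1.01 FPKM in the R153A libraries. One of its R153A values was under 1 FPKM, so it was not tested in the fit of expressed genes, and with no filter it was called higher (adjusted p = 7.0e-04 by limma). In RefSeq order Efna1, Efna3 and Efna4 are adjacent on chromosome 3 with 0 protein-coding genes between them, so a 2.43-fold rise, no call and a 1.13-fold rise stood side by side. In GENCODE M21, exons of antisense genes cover 14.6% of the exonic bases of Efna3 and 10.5% of those of Efna4. The use of strand in counting is not given in the sources used here, so those 2 values may hold reads of the antisense genes.

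**Figure D2:**
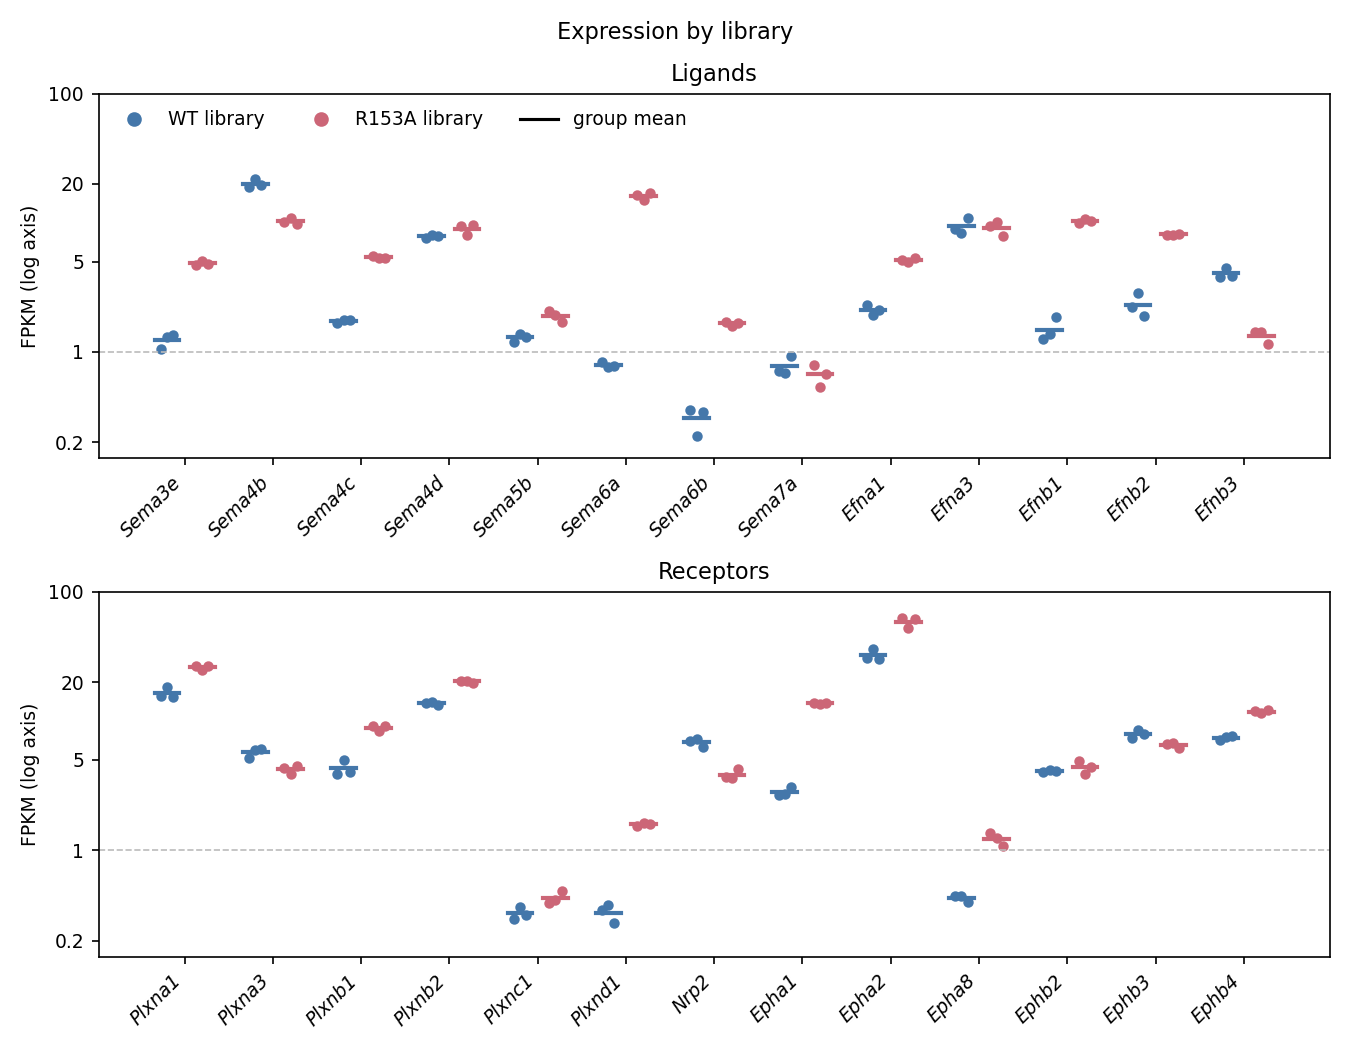
FPKM on a log axis in each library (points, blue for WT and red for R153A) with the group mean (line) for 13 ligands and 13 receptors; the dashed line marks 1 FPKM. Sema6a, Efnb1 and Epha1 show wide gaps between the groups, while Efna3, Sema7a and Ephb2 overlap.

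Of the plexins, those of the B and D types rose where they were expressed, and the A type split. Plxna1, the most abundant plexin, stood at 15.7, 18.3 and 15.4 FPKM in the WT libraries and 26.9, 24.7 and 26.4 FPKM in the R153A libraries, a 1.58-fold higher mean (log2 change 0.63, SE 0.0684, adjusted p = 1.3e-05 by limma). Antisense exons of another gene cover 10.7% of its exonic bases in GENCODE M21. Plxna3 stood at 5.13, 6.01 and 6.10 FPKM in the WT libraries and 4.301, 3.90 and 4.51 FPKM in the R153A libraries, a 1.36-fold lower mean (adjusted p = 0.00267 by limma). The R153A values of Plxna1 were all above, and those of Plxna3 all below, the WT values. Plxna2 lay between 0.0784 and 0.205 FPKM and Plxna4 between 0.00341 and 0.0268 FPKM over the 6 libraries, with overlapping groups and no call with no filter (adjusted p = 0.524 and 0.965 by limma). Plxnb1, the receptor of Sema4d, stood at 3.91, 5.00 and 4.03 FPKM in the WT libraries and 9.12, 8.45 and 9.10 FPKM in the R153A libraries, a 2.06-fold higher mean (log2 change 0.90, SE 0.0850, adjusted p = 4.1e-06 by limma). Plxnb2, which Sema4c binds, stood at 13.9, 14.1 and 13.4 FPKM in the WT libraries and 20.5, 20.5 and 19.8 FPKM in the R153A libraries, 1.47-fold higher in the mean (log2 change 0.52, SE 0.0519, adjusted p = 6.2e-06 by limma). Plxnb3 lay between 0.00829 and 0.0732 FPKM. Plxnd1, the receptor of Sema3e on endothelium, stood at 0.343, 0.374 and 0.273 FPKM in the WT libraries and 1.54, 1.63 and 1.59 FPKM in the R153A libraries, a 4.81-fold higher mean that passed the filter only through R153A (log2 change 0.96, SE 0.0789, adjusted p = 1.4e-06 by limma). Plxnc1, the only plexin of its type, stood at 0.293, 0.365 and 0.314 FPKM in the WT libraries and 0.393, 0.412 and 0.484 FPKM in the R153A libraries and was not tested. Its groups did not overlap, but with no filter it was not called (adjusted p = 0.0668 by limma).

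The neuropilins, co-receptors of secreted semaphorins and of VEGF, were carried almost wholly by Nrp2. Nrp2 stood at 7.02, 7.28 and 6.31 FPKM in the WT libraries and 3.72, 3.61 and 4.23 FPKM in the R153A libraries, a 1.78-fold lower mean with all R153A values below the WT values (log2 change -0.70, SE 0.0790, adjusted p = 1.9e-05 by limma). Nrp1, the co-receptor that Sema3a prefers, lay between 0.0402 and 0.0978 FPKM with overlapping groups. The share of Nrp2 in the summed neuropilin FPKM was 99.1% ± 0.380 in WT and 98.3% ± 0.637 in R153A.

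Epha2 was the most abundant of all members in both groups. This receptor of epithelia and of stem cells stood at 30.9, 36.2 and 30.2 FPKM in the WT libraries and 62.5, 52.2 and 61.4 FPKM in the R153A libraries, a 1.81-fold higher mean (log2 change 0.84, SE 0.0818, adjusted p = 5.6e-06 by limma). Epha1 changed more, with values of 2.65, 2.70 and 3.07 FPKM in the WT libraries and 13.7, 13.6 and 13.8 FPKM in the R153A libraries, a 4.89-fold higher mean with no overlap of the groups (log2 change 1.95, SE 0.0674, adjusted p = 2.2e-09 by limma). Exons of Zyx on the opposite strand cover 6.97% of the exonic bases of Epha1 in GENCODE M21. Epha8, a receptor known from the developing midbrain, rose from 0.429 ± 0.0245 to 1.23 ± 0.135 FPKM and passed the filter only through R153A (adjusted p = 5.3e-05 by limma). The share of Epha2 in the summed EphA FPKM was 88.7% ± 1.45 in WT and 77.9% ± 1.50 in R153A, and that of Epha1 was 7.74% ± 1.06 in WT and 18.3% ± 1.39 in R153A. The other 6 EphA genes were under the filter. Epha7, a receptor of the developing cortex, stood at 0.287, 0.181 and 0.277 FPKM in the WT libraries and 0.712, 0.622 and 0.733 FPKM in the R153A libraries, and with no filter it, Epha10 and Epha6 were called higher (adjusted p = 8.6e-04, 0.0326 and 0.0180 by limma). Epha3, Epha4 and Epha5 were not called there, and Epha4, with 0.438 ± 0.0244 FPKM in WT and 0.478 ± 0.0207 in R153A, was the only one of these 3 above 0.1 FPKM.

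The B-type receptors moved in different directions at similar levels. Ephb4, the venous partner of Efnb2, stood at 7.08, 7.50 and 7.69 FPKM in the WT libraries and 11.9, 11.5 and 12.1 FPKM in the R153A libraries, a 1.60-fold higher mean (log2 change 0.61, SE 0.0604, adjusted p = 6.1e-06 by limma). Ephb3, a receptor that positions cells in the intestinal crypt, stood at 7.44, 8.54 and 7.99 FPKM in the WT libraries and 6.61, 6.77 and 6.16 FPKM in the R153A libraries, a 1.23-fold lower mean (log2 change -0.26, SE 0.0704, adjusted p = 0.00856 by limma). Ephb2 had the smallest change of the tested receptors, with values of 4.05, 4.21 and 4.10 FPKM in the WT libraries and 4.89, 3.90 and 4.42 FPKM in the R153A libraries, and its WT values lay inside the R153A range (log2 change 0.07, SE 0.0807, adjusted p = 0.452 by limma). Ephb3 led the class in WT and Ephb4 in R153A, although in WT the values of these 2 genes overlapped. Ephb6, which lacks kinase activity, stood at 0.468, 0.654 and 0.801 FPKM in the WT libraries and 1.36, 1.35 and 0.999 FPKM in the R153A libraries, so that R153A replicate 3 was just short of 1 FPKM and it was not tested. With no filter Ephb6 and Ephb1 were called higher (adjusted p = 0.0163 and 7.9e-04 by limma), the latter from 0.0302 ± 0.0275 to 0.206 ± 0.0173 FPKM.

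Summed by class, levels were higher in R153A in most classes and lower in the neuropilins, class 4 and class 7, the last being Sema7a alone with overlapping groups. The class 6 semaphorins went from 3.57 ± 0.221 to 20.4 ± 1.14 FPKM, a 5.70-fold higher sum. The class 3 sum was 2.93-fold higher, going from 2.76 ± 0.298 to 8.10 ± 0.192 FPKM, and the ephrin-B sum 2.52-fold higher, going from 7.87 ± 0.768 to 19.8 ± 0.391 FPKM. Class 4 went from 34.5 ± 1.75 to 29.5 ± 0.878 FPKM, of which Sema4b made up 58.04% ± 1.83 in WT and 34.7% ± 2.61 in R153A. The EphA sum went from 36.5 ± 3.13 to 75.3 ± 5.86 FPKM, and the EphB sum from 20.2 ± 0.970 to 24.2 ± 0.624 FPKM. In each of these classes the 3 R153A sums lay on one side of the 3 WT sums. Over all 28 ligands the sum went from 71.5 ± 2.61 to 108 ± 1.50 FPKM (1.51-fold), and over all 25 receptors from 105 ± 6.82 to 165 ± 8.17 FPKM (1.57-fold). Such sums follow the few most abundant genes and were given no test.

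**Figure D3:**
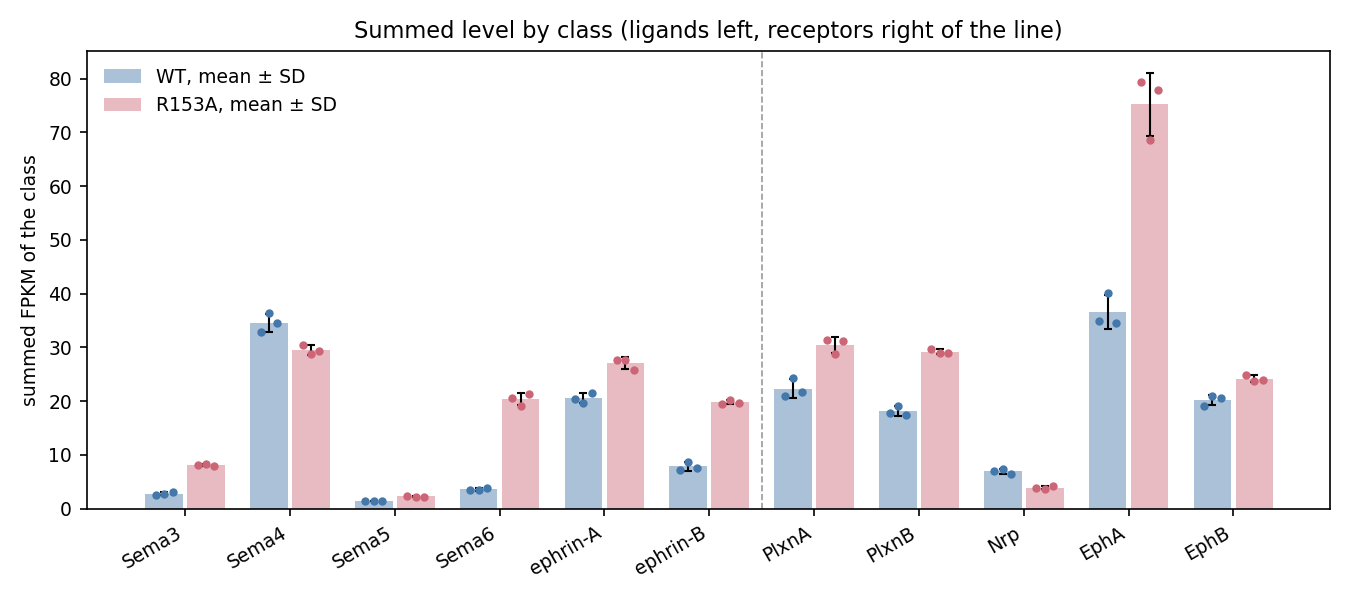
Summed FPKM of each class (bars, mean; error bars, SD over 3 libraries; points, libraries), ligands left and receptors right of the dashed line. EphA, ephrin-B and class 3 and class 6 semaphorin sums are higher in R153A, and the class 4 and neuropilin (Nrp) sums are lower.

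The order of the ligands by level differed between the groups. In WT the first were Sema4b (20.1 ± 1.59 FPKM), Efna3 (9.41 ± 1.30), Sema4d (7.86 ± 0.226) and Efna4 (6.96 ± 0.153). In R153A they were Sema6a (16.1 ± 1.01), Efnb1 (10.3 ± 0.385), Sema4b (10.2 ± 0.545) and Efna3 (9.15 ± 1.16). The last 3 of these had overlapping values. The first 3 receptors were Epha2, Plxna1 and Plxnb2 in both groups, with no overlap between neighbours. Ligands with a mean of at least 5 FPKM numbered 4 in WT and 9 in R153A, and receptors at that level numbered 7 in each.

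Known partners were set side by side for 13 ligand and receptor pairs from textbook knowledge, of which some share a gene. Some of the 13 pairs hold a gene that was not tested. Among all genes tested 37.5% rose, but this share is of single genes and gives no background for pairs. In 5 pairs both genes were called higher. They were Sema3e with Plxnd1, Sema4c with Plxnb2, Efna1 with Epha2, Efna1 with Epha1, and Efnb2 with Ephb4. Plxnd1 had passed the filter only through R153A, so its direction in the first of these was fixed. Of the members that fell, only Nrp2 is in a pair, while Sema4b, Sema4f, Efnb3, Plxna3 and Ephb3 are in none. The pairs are therefore no sample of all members. In 2 pairs of tested genes one partner rose, as Efnb1 was called higher beside an uncalled Ephb2, and Plxnb1 beside an uncalled Sema4d. Sema6a reached 16.1 ± 1.01 FPKM while its receptors Plxna2 and Plxna4 were at 0.155 ± 0.0675 and 0.0119 ± 0.00713 FPKM in the same R153A libraries. Conversely Nrp2 fell beside its ligand Sema3f, which was not called, and Plxna1 rose while its ligand Sema6d was listed at 0.00873 ± 0.00301 FPKM. The call of one partner and not of the other does not show that the changes differ, and that difference was not tested.

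**Figure D4:**
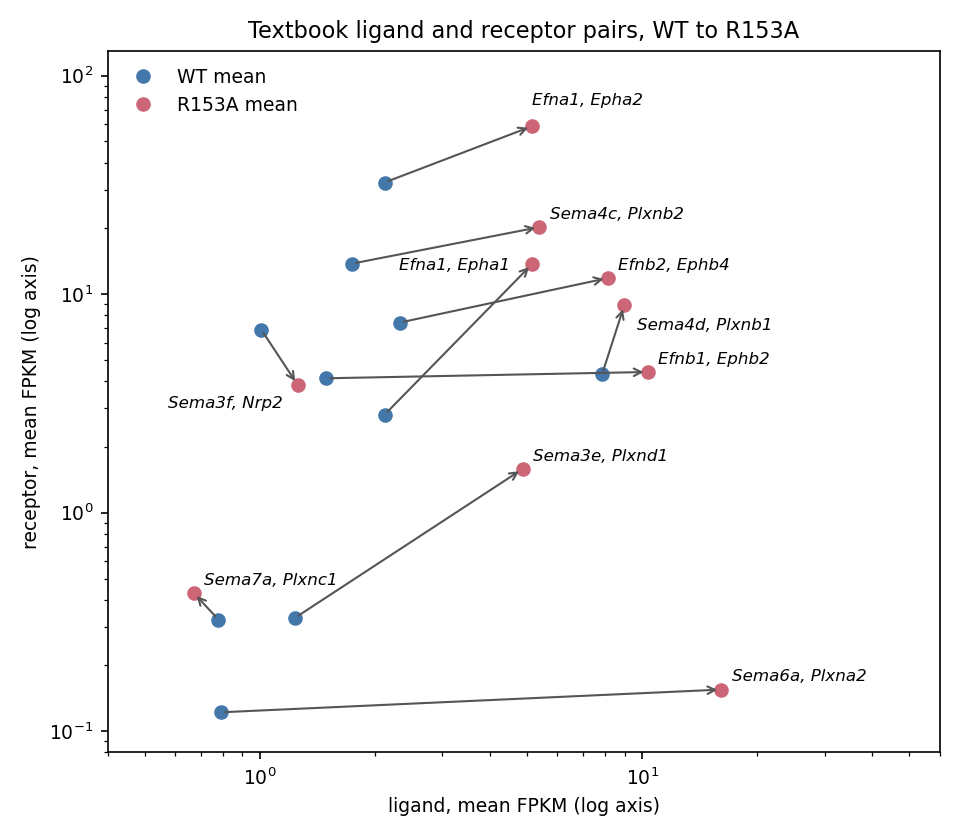
Mean FPKM of the receptor (vertical) against that of the ligand (horizontal), both on log axes, for the 10 pairs with all means of at least 0.1 FPKM; arrows run from WT (blue) to R153A (red). Sema3e with Plxnd1 moves along both axes, Sema6a with Plxna2 almost only along the ligand axis, and Sema3f with Nrp2 downward on the receptor axis.

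Genes that carry the signal inside the cell were called in both directions. Among 75 measured transducers and modifiers of semaphorin and Eph signalling, 62 could be tested, and 31 rose, 11 fell and 20 did not pass, beside 37.5% and 22.3% of all genes tested. Of the 62, 2 (Met and L1cam) passed the filter only through R153A and 1 (Dpysl4) only through WT. The median log2 change was 0.18. At least 2-fold rises passed for 4, with Rnd3 going from 2.62 ± 0.249 to 9.50 ± 0.591 FPKM. The collapsin response mediator Crmp1, which relays Sema3a, rose from 1.84 ± 0.156 to 7.02 ± 0.379 FPKM. The plexin-binding exchange factor gene Farp1 rose from 2.14 ± 0.186 to 6.52 ± 0.283 FPKM, and Cldn4, a claudin of tight junctions, from 40.8 ± 4.68 to 90.4 ± 3.81 FPKM. The relatives of Crmp1 went both ways, as Dpysl3 (log2 change -0.77) and Dpysl4 (-0.71) fell and Dpysl5 (0.86) and Dpysl2 (0.36) rose. With the SRC-family kinase gene Yes1 (-0.74), Dpysl3 and Dpysl4 had the largest drops among the 11 that fell. These genes were picked out after their values were seen. Adam10, the protease that sheds ephrins, was not called (8.82 ± 0.216 FPKM in WT and 9.54 ± 0.587 in R153A, adjusted p = 0.199 by limma).

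Markers of the labelled cell type were high in every library, and some marker sums moved with the members. All 8 pluripotency markers were expressed, with a summed FPKM of 4096 to 4850 in WT and 2188.5 to 2286 in R153A, and 7 of them fell. Of 7 primitive streak and mesoderm markers 3 rose (T, Fgf8 and Wnt3) and 1 fell (Eomes), with sums of 3.66 to 5.33 and 14.4 to 17.7 FPKM, and Mesp1 was at most at 0.0443 FPKM. The sum of 9 fibroblast markers was 5.78 to 6.59 in WT and 8.46 to 9.39 in R153A, 6 of them were under 1 FPKM in every library, and Col1a1 and Col1a2 rose. The sum of 7 endothelial markers went from between 21.8 and 21.95 to between 11.4 and 11.6 FPKM, 88.04% of it Pecam1 in WT, while Cdh5 was at most at 0.0796 FPKM and Emcn was at 0 in all 6 libraries. The sum of 8 neuronal markers was 77.05 to 80.1 in WT and 48.4 to 51.9 in R153A, mostly Stmn2, which fell, while Nefl rose (2.97 to 3.86 and 6.06 to 6.38 FPKM) and Dcx was at or near 0. For 7 primitive endoderm markers the sums were 3.35 to 4.55 and 3.15 to 3.65, but single markers moved apart. Of the 2 tested, Sox7 fell (1.75 to 2.69 FPKM in WT and 0.183 to 0.366 in R153A) and Gata4 was not called. Under the filter, Dab2, Foxq1 and Pdgfra were higher in every R153A library than in any WT library. Sox17 was lower, and the groups of Gata6 overlapped. The part of such cells in the members' changes was not tested, and in these bulk libraries fewer cells of a type and less RNA per cell cannot be told apart.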

How the data were processed

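RNA of 6 mouse embryonic stem cell libraries was sequenced after poly(A) selection, per the labels' protocols. The deposited table holds FPKM values computed by the authors. The submitters' processing notes list the build mm9 and, with no step for each, the tools HTSeq 0.11.2, edgeR 3.26.8, Bowtie2 2.3.4.3 and SAMtools 1.9. How strand and multi-mapping reads were treated is not given in the sources used here. No counts were available to set the depth, and a gene listed at 0 may be a failed estimate, since the sterol synthesis gene Hmgcs1 is at 0 in all 6 libraries.

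The values were used as log2(FPKM + 1) in limma 3.58.1 (R 4.3.3, trended moderated variances, 2-sided, Benjamini-Hochberg adjustment). Genes needed at least 1 FPKM in at least 3 libraries. The procedure was tested on simulated data. Named by rule were members changed at least 2-fold with a mean of at least 1 FPKM, the most abundant member of each class, and the tested ligand and receptor nearest to no change; others are named to account for every member. The members, marker lists and partner lists were chosen with earlier results of these data known. Pseudocounts of 0.1 and 0.5, other filters, 3 scalings, other variance models, a replicate block and leaving out each library were tried, 16 alternatives in all. Promoters came from RefSeq and exon overlaps from GENCODE M21, both on GRCm38, and no coordinate was converted between builds.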

Additional observations from a re-analysis of the deposited data

How the results depend on the processing

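Of the 32 tested members 24 kept their direction and their side of the threshold in each of the 16 alternatives that tested them. A filter of 5 FPKM left 11 members called higher (5 ligands higher and 1 lower) and 2901 of all genes higher, since fewer genes were tested. With no filter 13 receptors were called higher. The median log2 fold change of the ligands was 0.55 with a pseudocount of 0.1, 0.20 with no filter, 0.69 with the 5 FPKM filter, 0.47 after rescaling to TPM and 0.18 after quantile normalization. That of the receptors was 0.66 with a pseudocount of 0.1, 0.11 with no filter, 0.54 after median-ratio scaling and 0.49 after quantile normalization. Signs of uncalled genes reversed for Efna3 (-0.107 to 0.0635 over the fits that left out 1 library, above 0 without WT replicate 3 and, at 0.0596, without R153A replicate 3), Ephb2 (-0.0836, quantile), Sema3f (-0.0947, quantile) and Sema6c (-0.00983, median-ratio scaling, and -0.151, quantile), and the cause was not tested. Calls were lost for Efna4 and Sema5b, as given above. The replicate block gave 19 members higher and 6 lower, with Efna4 lost (limma adjusted p = 0.0915). Deviations of same-numbered libraries correlated at -0.0487, -0.00946 and 0.0600, so the numbers were not taken to pair the libraries. With 3 libraries a group, the exact permutation test of a single gene cannot go below p = 0.1, the value for Nanog and Wdr5. Depth is unknown, so no counting error can be set beside values under 1 FPKM.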

Other observations

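Guidance families other than those above were also measured. Among 32 netrins, slits, their receptors and related genes, 11 could be tested, and 7 rose, 0 fell in the limma fit (1 was lower at an unadjusted p under 0.05, Neo1) and 4 did not pass, where 37.5% of all genes tested rose and 22.3% fell. Unc5b, a netrin receptor, went from 5.56 ± 0.251 to 27.8 ± 0.967 FPKM (log2 change 2.14, SE 0.0585, adjusted p = 4.3e-10 by limma). Lphn2, an adhesion receptor of the latrophilin family, went from 3.22 ± 0.0682 to 16.9 ± 0.390 FPKM (log2 change 2.08, SE 0.0600, adjusted p = 6.0e-10 by limma). Rgma, a repulsive guidance molecule that binds neogenin, went from 0.208 ± 0.0381 to 1.50 ± 0.135 FPKM and passed the filter only through R153A. Neo1, which encodes neogenin, was not called, with 7.12 ± 0.571 FPKM in WT and 6.17 ± 0.298 in R153A (adjusted p = 0.0550 by limma).

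With no filter on low values 13 of the 32 rose and 3 fell, where 26.9% and 13.4% of genes did. The 3 that fell were Slit2, Robo3 and Robo4, a slit and a pair of genes of the Robo family. Slit1, Slit3 and the slit receptor Robo1 rose, so slits and Robo genes went both ways, with Robo1 going from 1.04 ± 0.113 to 1.58 ± 0.238 FPKM (adjusted p = 0.0284 by limma). Slit2 went from 1.004 ± 0.0972 to 0.363 ± 0.0302 FPKM (adjusted p = 3.8e-04 by limma), and Slit3 from 0.128 ± 0.00782 to 0.618 ± 0.0655 FPKM (adjusted p = 1.4e-04 by limma).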
